A study of Mus musculus with 11 samples.

Results

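The genes described here are the ligand Csf1 and 8 receptor chains for colony-stimulating factors and interleukins: Csf1r, Csf2ra, Csf2rb, Csf3r, Il7r, Il2rg, Il4ra and Il10ra. They were taken as every probe whose RefSeq accession belongs to 1 of these symbols, which gave 9 genes and 14 probes of 17427 named genes and 41174 probes on the array. The list was selected on the differences in level between the genotypes in these same arrays, so the differences below describe it and are no independent evidence about it. RNA came from cells positive for green fluorescent protein, sorted from adrenal glands of mouse embryos at E17.5 or E18.5, shortly before birth. The study compared 4 Star knockout mice, all labelled male, with 7 wild-type mice carrying Star+/+, labelled 3 male and 4 female, each on a single-colour array. Star encodes the protein that delivers cholesterol into mitochondria for steroid synthesis. The cells of both genotypes carry a fluorescent reporter, of which the labels name neither the promoter nor the strain.

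Colony-stimulating factors are secreted proteins that keep blood cells alive and drive them to multiply and mature. CSF-1 acts through a receptor tyrosine kinase and maintains macrophages, including the resident macrophages of endocrine glands. Receptors built from the other chains described here lack a kinase of their own and signal through bound JAK kinases and STAT transcription factors. Many are built from a chain specific for 1 ligand and a chain shared between several.

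The arrays lay on 3 slides: 2 knockout and 2 wild-type arrays on slide 1, 2 knockout arrays and 1 wild-type array on slide 2, and 4 wild-type arrays on slide 3. A level is the log2 of the processed signal minus that of the 75th percentile probe on the same array, so a probe at 0 is brighter than most, and levels of different probes are not compared. With slide as a term, each fitted difference rests on 4 knockout and 3 wild-type arrays, and slide 3 adds to the estimate of spread alone. Differences are given as log2 ± SE, with p-values from limma adjusted by Benjamini-Hochberg over 20739 genes and a threshold of 0.05. Star, the targeted gene, had levels between 1.58 and 3.27 on the knockout arrays, against 3.21 to 7.86 on the wild-type arrays, so knockout array 4 lay just above wild-type array 6. The labels do not say whether its probe lies in the deleted part. Wild-type array 3, the single wild-type array of slide 2, had the lowest 75th percentile of signal, 115 where the others had 166 to 706, and the lowest correlation with the other arrays. Wild-type array 4 was labelled female, yet its Y-linked Ddx3y level was 2.70, within the range of the arrays labelled male. Sorted cells of both genotypes had the adrenocortical marker genes, and 6 or 7 of the 7 measured were well above background on each array. Their mean level ran from 1.70 to 3.22 on the knockout arrays and from 1.08 to 4.68 on the wild-type arrays. All 7 had negative differences, with a median of −1.08; 0 passed with limma and 1 had an unadjusted p under 0.05, the steroid enzyme gene Hsd3b1 (−2.32 ± 0.78, adjusted p = 0.174).

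Across the list, Csf2rb, Csf3r and Il7r rose in the knockout arrays, and the other 6 genes did not pass the test. That is 3 of 9 genes, where 0.603% of all genes tested passed as higher and 0.231% as lower. The median difference of the 9 genes was 2.69, also with Csf3r set at its bound, against −0.16 over all genes tested, and all 9 fitted differences were positive, as were 43.0% of those of all genes. Csf3r and Il7r met the filter on dim signals, 4 arrays above background, through the 4 knockout arrays, where they are high, so the filter itself used the contrast for them. Of all genes tested, 18.5% had an unadjusted p under 0.05, the share to set beside the counts for gene lists below. The lowest knockout level lay above the highest wild-type level for 5 genes, Csf1r, Csf2rb, Csf3r, Il7r and Il10ra, a pattern that 4.12% of all genes tested had. These shares are printed as description, since the list was selected with this contrast known. All knockout arrays were labelled male and wild-type array 3 female, and with sex as a further term Csf2rb and Csf3r passed (adjusted p = 0.0122 for each, limma).

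**Figure D1:**
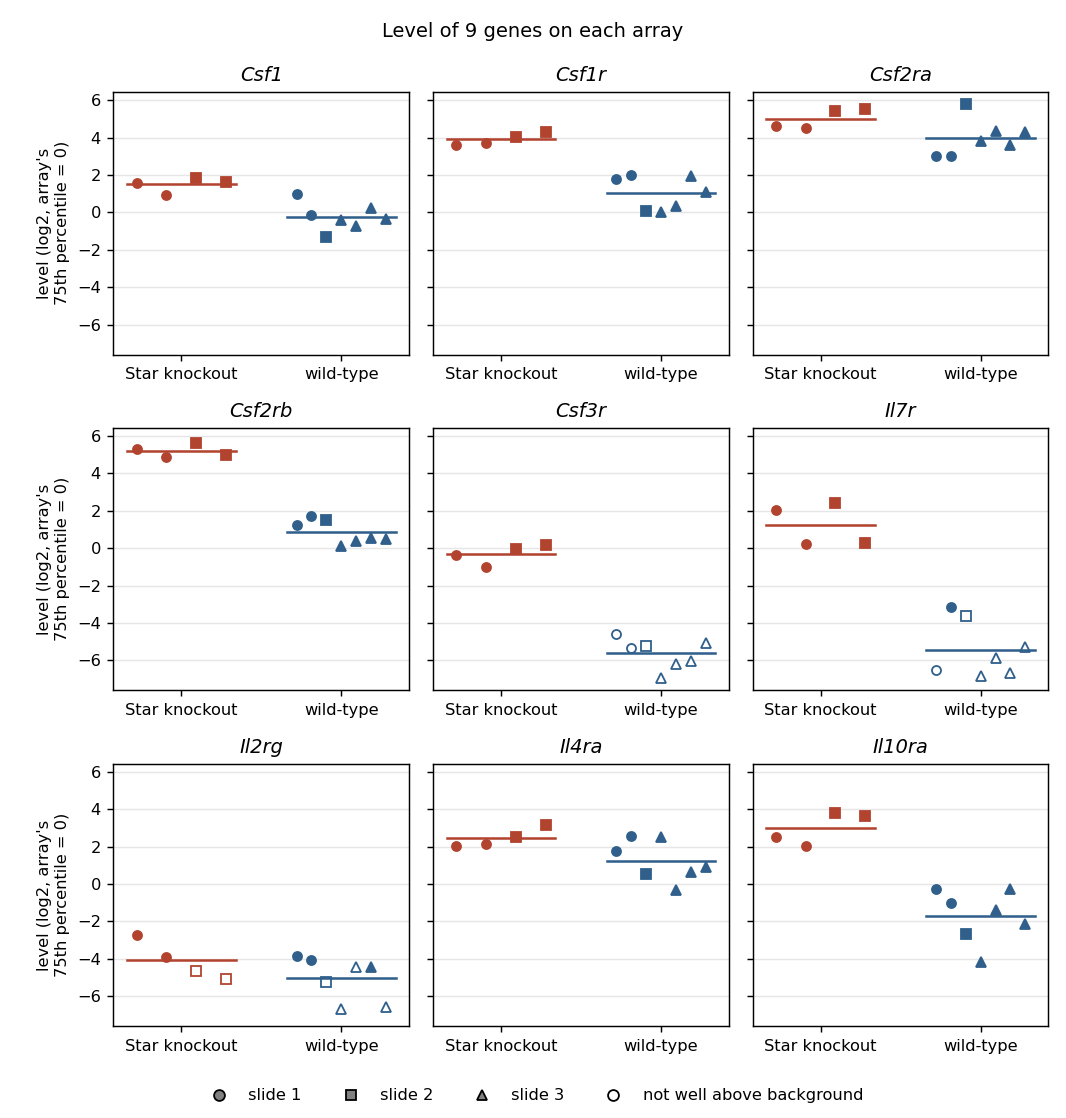
Level of each of the 9 genes on every array, in log2 with the array's 75th percentile at 0, for 4 Star knockout arrays (left, red) and 7 wild-type arrays (right, blue). Lines are group means, marker shapes give the slide, and open markers are signals not well above background. Csf1r, Csf2rb and Il10ra are measured on all arrays and do not overlap, Csf3r and Il7r are set against mostly dim wild-type signals, and Csf1, Csf2ra, Il2rg and Il4ra overlap.

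RefSeq promoter windows of the assembly GRCm38.p6, 300 bases each and ending just past the gene's start, were available for 6 of the 9 genes. Windows of Csf3r and Il7r, the rising genes with a window, and of Csf2ra, the receptor gene bright in both genotypes, are shown 5′ to 3′ on the gene's strand to set the promoters of these receptor chains side by side. Capitals mark GAGGAA, the core that PU.1 and other ETS factors bind, and TTCNNNGAA, the site read by STAT factors, both searched on both strands and with no overlap between the 2 motifs. The windows lie at chr4:126024409-126024708, plus strand, for Csf3r, at chr15:9529827-9530126, minus strand, for Il7r, and at chr19:61228369-61228668, minus strand, for Csf2ra.
Csf3r: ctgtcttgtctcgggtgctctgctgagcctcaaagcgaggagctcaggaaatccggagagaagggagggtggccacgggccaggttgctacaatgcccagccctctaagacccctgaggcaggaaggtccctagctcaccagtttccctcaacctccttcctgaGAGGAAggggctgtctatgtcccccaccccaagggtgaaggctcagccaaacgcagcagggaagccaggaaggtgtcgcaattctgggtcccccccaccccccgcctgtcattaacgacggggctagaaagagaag
Il7r: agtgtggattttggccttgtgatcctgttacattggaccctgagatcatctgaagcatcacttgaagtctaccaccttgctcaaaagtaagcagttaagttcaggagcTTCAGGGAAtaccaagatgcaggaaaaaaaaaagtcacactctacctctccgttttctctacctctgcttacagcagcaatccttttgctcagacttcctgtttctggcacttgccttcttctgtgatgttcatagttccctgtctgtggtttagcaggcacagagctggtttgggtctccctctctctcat
Csf2ra: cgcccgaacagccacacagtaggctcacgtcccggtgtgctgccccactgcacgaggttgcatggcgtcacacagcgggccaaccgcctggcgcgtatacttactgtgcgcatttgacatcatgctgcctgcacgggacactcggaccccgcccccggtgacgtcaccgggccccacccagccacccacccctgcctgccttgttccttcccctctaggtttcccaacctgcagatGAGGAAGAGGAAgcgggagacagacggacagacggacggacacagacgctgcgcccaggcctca

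The Csf3r window held 1 GAGGAA, 86 bases before the start, and the Csf2ra window held 2, while the Il7r window held none. Shorter or variant ETS sites were not searched, so a window without this string, Il7r included, can still hold an ETS site. Of 32851 windows in the whole table, 28.3% held GAGGAA, beside 2 of the 6 windows here. Il7r had the single STAT match among the 6 windows, 142 bases before the start, a motif that 8.30% of all windows held. The longer PU.1 site GAGGAAGT and the SF-1 site CAAGGTCA, found in 3.20% and 1.56% of all windows, were in none of the 6. A match is a string of letters and says nothing of binding.

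Csf1, the ligand of the macrophage receptor, had levels of 1.58, 0.94, 1.85 and 1.60 on the knockout arrays. On the wild-type arrays it ran from −1.31 through a median of −0.38 to 0.97. The knockout levels were high and close together, and 1 wild-type array of slide 1 reached the lowest of them. The fitted difference of 1.71 ± 0.52 did not pass (adjusted p = 0.141, limma), with 0.83 on slide 1 and 3.03 on slide 2. Csf1 was read by 10 spots per array, of which 9 were used on wild-type arrays 3, 4 and 7. The SD over spots on an array, a measure of spot noise alone, was between 0.022 and 0.292 log2 units.

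Csf1r, the receptor for CSF-1 and IL-34 and a defining gene of macrophages, had 3.59, 3.68, 4.03 and 4.30 on the knockout arrays. Wild-type levels were between 0.03 and 2.00 with a median of 1.11. No array of either genotype reached into the range of the other, and the gap at the closest pair was 1.59. Even so, the fitted difference of 2.69 ± 0.58 stayed above the threshold (adjusted p = 0.0730, limma). It was 1.75 within slide 1 and 4.09 within slide 2, where wild-type array 3 stood at 0.07; without that array the adjusted p was 0.651, and without wild-type array 4 the gene passed (adjusted p = 0.0446).

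A further Csf1r probe, A_52_P602091, gave 0.19, 0.04, −0.20 and 0.72 on the knockout arrays, against −4.42 to −1.62 with a median of −2.91 on the wild-type arrays. Its difference of 2.86 ± 0.61 (probe-level adjusted p = 0.0735, limma over 25882 probes) was close to that of the brighter probe. Over the 7 wild-type arrays alone the 2 probes had r = 0.901. The third probe, A_52_P570471, was well above background on 3 knockout and 1 wild-type arrays, with a difference of 0.41 ± 0.58 (adjusted p = 0.742). So the genotypes were separated on both brighter probes, and the dim probe overlapped.

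Csf2ra, the alpha chain that binds GM-CSF, was among the brightest probes of both genotypes. Knockout levels were 4.61, 4.48, 5.44 and 5.52, at the 96.1st to 98.1st percentile of their arrays. Wild-type levels ran from 2.99 through 3.79 to 5.78, at the 91.5th to 97.4th percentile. Wild-type array 3 was the highest of all 11 arrays for this gene, while it was lowest or near lowest for Csf1, Csf1r and Il10ra. Genotypes overlapped, and the difference of 0.81 ± 0.42 did not pass (adjusted p = 0.341, limma). The sign differed between slides, at 1.55 within slide 1 and −0.31 within slide 2.

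Csf2rb encodes the common beta chain shared by the receptors for GM-CSF, IL-3 and IL-5. Its brightest probe, A_52_P52618, had 5.31, 4.86, 5.60 and 4.97 on the knockout arrays. The wild-type arrays had 0.12 at the lowest, 0.55 at the median and 1.74 at the highest, 3.11 below the lowest knockout array. This gene rose by 3.66 ± 0.32, or 12.7-fold (adjusted p = 0.00235, limma), and by nearly the same amount within slide 1, 3.58, and slide 2, 3.78. Its spread was narrow in each genotype, with an SD of 0.34 over 4 knockout arrays and 0.62 over 7 wild-type arrays.

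The probes of Csf2rb disagreed. A_52_P664853, above background on every array, had −1.18, −1.16, −2.22 and −1.98 on the knockout arrays, against −3.07 to −0.37 on the wild-type arrays. The genotypes overlapped there, and the difference was −0.69 ± 0.34 (probe-level adjusted p = 0.336, limma). A_52_P492939 was above background on 1 knockout array and was not tested. Averaging the 3 probes gave a difference of 1.08 that did not pass (adjusted p = 0.124). For the brightest probe, the slide 1 design file lists another accession than the Csf2rb entry of slides 2 and 3.

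Mice carry a second beta chain, Csf2rb2, which pairs with the IL-3 receptor and lies next to Csf2rb on chromosome 15 with a closely similar sequence. Csf2rb2 had 4.56, 3.68, 5.55 and 4.88 on the knockout arrays, against −1.46 to 1.88 with a median of 0.50 on the wild-type arrays. It rose by 4.28 ± 0.76 (adjusted p = 0.0401, limma), with no overlap. Since transcripts of these near-identical copies can bind each other's probes, which copy each probe reads is uncertain.

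**Figure D2:**
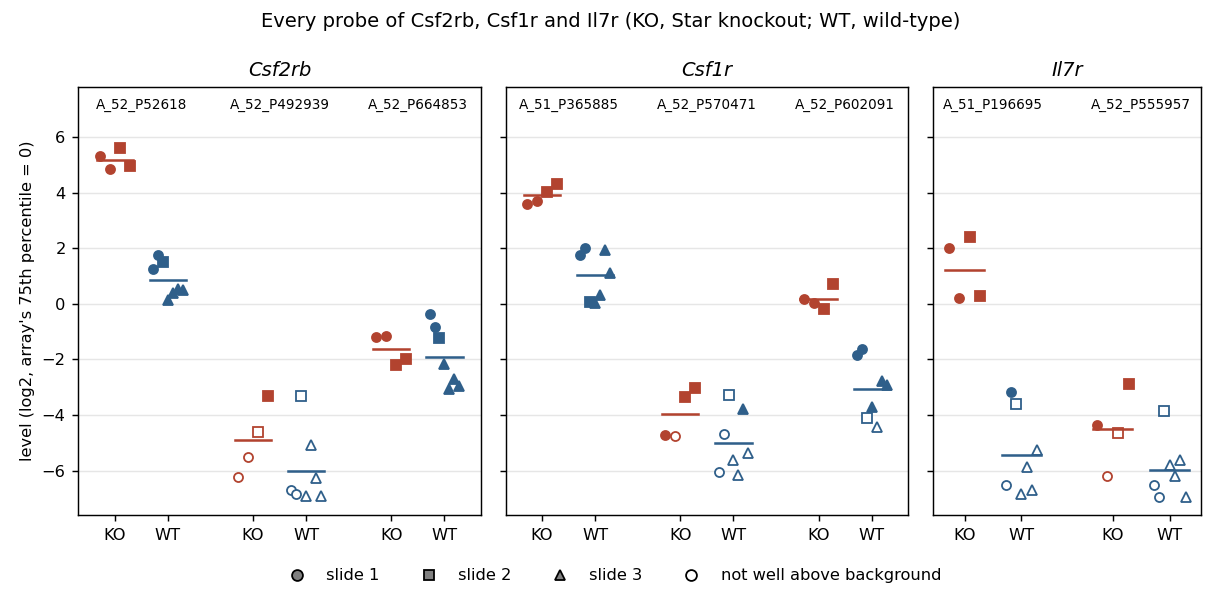
Levels on every array of all 3 probes of Csf2rb, all 3 of Csf1r and both of Il7r, in log2 with the array's 75th percentile at 0, with Star knockout arrays (KO, red) left of wild-type arrays (WT, blue) for each probe. Lines are means and open markers are signals not well above background. The brightest probe of each gene separates the genotypes, as does Csf1r probe A_52_P602091; Csf2rb probe A_52_P664853, above background throughout, does not.

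Csf3r, the G-CSF receptor of neutrophils and their precursors, was measured on all 4 knockout arrays and was too dim to measure on each of the 7 wild-type arrays. Knockout levels were −0.38, −0.98, −0.02 and 0.15, near the 75th percentile of all probes. Wild-type signals, all dim, ran from −6.97 through −5.34 to −4.61. With each dim wild-type signal set to the lowest signal above background on its array, Csf3r was at least 16.1-fold higher in knockout arrays over all arrays, and at least 12.7-fold higher in the fit with slide (adjusted p = 0.0014, limma on signals so raised). On the signals as measured, the means were −0.31 ± 0.50 (SD, n = 4) on the knockout arrays and −5.63 ± 0.80 (SD, n = 7) on the wild-type arrays, and the adjusted p was 0.0040. The bounds hold for the processed signal, and under normexp background correction the fitted difference was 1.93 ± 0.49 (adjusted p = 0.0356, limma). With dim signals at the lowest level above background, the closest arrays of the 2 genotypes stood 2.13 apart. Leaving out wild-type array 3 moved the adjusted p to 0.0772.

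Marker genes of neutrophils were read on the same arrays, and the cells that gave the Csf3r signal were not tested. Of 6 neutrophil markers tested, 0 passed in either direction with limma, and 0 had an unadjusted p under 0.05. Differences were positive for 2 and negative for 4, with a median of −0.61. The median was 0.77 within slide 1 and −2.59 within slide 2. Their mean level was 4.03, 2.80, 1.59 and −3.53 on the knockout arrays, against 0.38 to 2.63 on the wild-type arrays. Knockout array 4, with the lowest neutrophil markers, had the highest Csf3r level, a contrast that rests on this single array. S100a9, an abundant granulocyte protein, had 8.35, 7.47, 6.65 and −0.51 on the knockout arrays, against 5.44 to 7.97 on the wild-type arrays (difference −1.56 ± 1.62, adjusted p = 0.632). Elane, neutrophil elastase, was not above background on any array.

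Il7r, the IL-7 receptor alpha chain of lymphocytes and their progenitors that also serves fetal macrophage precursors, had levels of 2.02, 0.20, 2.40 and 0.29 on the knockout arrays. Wild-type levels ran from −6.85 through −5.86 to −3.16, and 1 of 7, wild-type array 2, was well above background. It rose by 5.55 ± 0.88 (adjusted p = 0.0275, limma), a size that rests on dim wild-type signals. With these raised to the lowest level above background, the difference was 4.77 ± 0.61 (adjusted p = 0.0065, limma) and the closest arrays stood 3.31 apart. The difference was 2.91 ± 0.60 under normexp (adjusted p = 0.0113) and 3.23 ± 0.53 as the mean of both probes (adjusted p = 0.0287, limma).

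Leaving out any 1 knockout array, or wild-type array 1 or 3, left Il7r short of the threshold, with adjusted p-values from 0.0532 to 0.225 in limma. Sex as a further term gave 5.38 ± 1.03 (adjusted p = 0.114, limma). The other Il7r probe, A_52_P555957, was above background on 2 knockout arrays and on 0 wild-type arrays and was not tested. Its signals were −6.20 to −2.90 on the knockout arrays and −6.96 to −3.84 on the wild-type arrays.

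Il2rg, the common gamma chain that pairs with Il7r and with the receptors of IL-2, IL-4, IL-9, IL-15 and IL-21, was dim throughout. It had −2.73, −3.89, −4.63 and −5.10 on the knockout arrays, of which 2 were above background. Wild-type levels were −6.67 to −3.86 with a median of −4.44, and 3 of 7 were above background. The difference was 0.55 ± 0.65 (adjusted p = 0.676, limma) and the genotypes overlapped, so no difference was detectable at these signals. Under normexp background correction the sign turned, to −0.14, and it was −0.04 with dim signals raised.

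Il4ra, the receptor chain for IL-4 and IL-13, had 2.02, 2.14, 2.50 and 3.18 on the knockout arrays. Wild-type arrays had −0.32 at the lowest, 0.93 at the median and 2.54 at the highest. Wild-type arrays 2 and 4 lay within the knockout range, and the difference was 0.87 ± 0.71 (adjusted p = 0.529, limma). Within slide 1 it was −0.08, and within slide 2 it was 2.31.

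Il10ra, the ligand-binding chain for the anti-inflammatory cytokine IL-10, had 2.52, 2.02, 3.82 and 3.62 on the knockout arrays. Wild-type levels ran from −4.16 through −1.41 to −0.25, all above background and all below the lowest knockout level by 2.28 or more. The difference of 4.30 ± 0.94 did not pass (adjusted p = 0.0730, limma), with 2.92 within slide 1 and 6.38 within slide 2. Without wild-type array 3 the difference was 2.92 (adjusted p = 0.684), and without wild-type array 4 the gene passed (adjusted p = 0.0289).

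Among probes fitted one by one, 3 of the 12 tested for these genes passed as higher, where 0.464% of all probes tested did. Csf2rb, measured on all arrays, had differences of 3.58 and 3.78 on the slides that hold both genotypes. Csf1, Csf1r, Csf3r, Il4ra and Il10ra had larger differences within slide 2, which rests on wild-type array 3, than within slide 1. For Csf3r they were 4.30 within slide 1 and 5.27 within slide 2, and for Il7r 5.96 and 4.95. Both genes were set against mostly dim wild-type signals. On slide 3, wild-type arrays 4, 5, 6 and 7 had Csf1r levels of 0.03, 0.33, 1.94 and 1.11, beside 0.07 on wild-type array 3. For Il10ra and Il4ra that array also lay within the slide 3 levels, and for Csf1, at −1.31, below them.

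**Figure D3:**
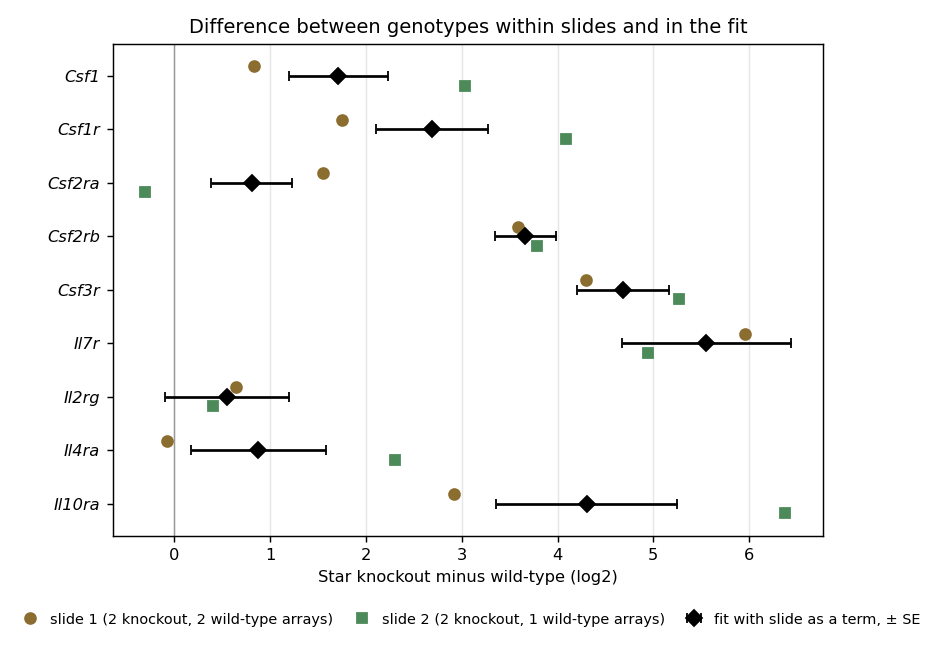
Star knockout minus wild-type, in log2, for each of the 9 genes: the difference of means within slide 1 (circles) and slide 2 (squares), and the fit with slide as a term with its SE (diamonds with bars). Csf2rb has nearly equal differences of 3.58 and 3.78 on the 2 slides. Csf1r, Il10ra, Csf1, Csf3r and Il4ra have larger ones on slide 2, and Csf2ra and Il4ra each lie below 0 on 1 slide.

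Ligands of these and related receptors formed a further list. Of 18 ligand genes, 10 were bright enough to test, Csf1 included, where 20739 of 33224 genes were, with unnamed probes counted singly. With limma 0 passed, and 3 of 10 had an unadjusted p under 0.05 beside 18.5% of all genes. The median difference was 1.11. GM-CSF and G-CSF (Csf2 and Csf3) were among the 8 not tested, and Il3, Il5, Il9, Il19 and Il21 were not above background on any array. Il34, the other ligand of Csf1r, had levels of −1.13 to 0.36 on the knockout arrays, against −2.77 to 0.54 on the wild-type arrays (1.65 ± 0.78, adjusted p = 0.295). Il7, the ligand of Il7r, was above background on 0 of 4 knockout arrays and 4 of 7 wild-type arrays (−2.52 ± 1.04, adjusted p = 0.242), a size that rests on dim signals. With dim knockout signals set to the lowest level above background, and wild-type signals as measured, its knockout mean was 2.09-fold lower over all arrays. Of the wild-type arrays with Il7 above background, all but array 1 lie on slide 3, which holds no knockout array. Genotype and slide are therefore not separated in that value. Il4 was above background on 4 knockout arrays and 1 wild-type array (3.33 ± 1.27, adjusted p = 0.217), and the genotypes overlapped.

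Of 24 partner chains and related receptors tested, 1 rose, Csf2rb2, where 0.603% of all genes tested did. Of the 24, 0 fell, and the median difference was 0.18. Crlf2, the TSLP receptor chain that pairs with Il7r, had 5.32, 5.19, 5.33 and 5.23 on the knockout arrays, against 3.81 to 5.02 on the wild-type arrays. Its groups did not overlap and the difference of 0.87 ± 0.36 did not pass (adjusted p = 0.250, limma). The IL-27 receptor chain Il27ra gave 1.81 ± 0.53 (adjusted p = 0.134), and Il12rb1, a chain of the IL-12 and IL-23 receptors, gave 2.40 ± 0.74 (adjusted p = 0.147), both with 4 knockout and 2 wild-type arrays above background. Il1rl1, the IL-33 receptor, gave 2.69 ± 1.03 (adjusted p = 0.218). Of the 24 differences, 15 were positive, beside 43.0% of all genes, and 9 negative. Among the negative, Il20ra gave −1.57 ± 0.66 (adjusted p = 0.252, limma), with every knockout level below every wild-type level. Il21r gave −0.80 ± 0.34 (adjusted p = 0.257, limma), with overlap.

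Of 30 tested JAK, STAT and feedback genes 1 rose, where 0.603% of all genes tested did, 0 fell and the median difference was 0.35. The gene that rose was Ptpn6, the phosphatase SHP-1 that damps cytokine receptor signals in blood cells. Its levels were 1.90, 1.22, 2.20 and 2.07 on the knockout arrays, against −2.90 to −0.43 on the wild-type arrays. The difference was 3.26 ± 0.57 (adjusted p = 0.0374, limma), and no levels overlapped. Differences short of the threshold were 2.29 ± 0.75 for the lipid phosphatase gene Inpp5d (adjusted p = 0.163), 1.31 ± 0.36 for the phosphatase gene Ptpn1 (adjusted p = 0.118) and 1.37 ± 0.48 for Socs6 (adjusted p = 0.189). Jak3, the kinase bound by the common gamma chain, had −1.62 to 0.58 on the knockout arrays, against −2.26 to −0.41 on the wild-type arrays (0.97 ± 0.35, adjusted p = 0.203).

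Genes that these receptors are known to induce gave 0 calls of 14 tested with limma, 5 with an unadjusted p under 0.05 beside 18.5% of all genes, and a median of 0.76. Bcl3, a nuclear co-factor of NF-κB, had the smallest p, with 3.83, 3.24, 3.69 and 2.85 on the knockout arrays, against 0.60 to 3.10 on the wild-type arrays (2.05 ± 0.54, adjusted p = 0.110). Pim1, a kinase gene induced through STAT5, gave 2.55 ± 0.83 (adjusted p = 0.162), with a difference of 0.72 within slide 1 and 5.31 within slide 2. Mrc1, the mannose receptor gene, also listed among resident macrophage markers, gave 1.36 ± 0.51 (adjusted p = 0.213), and Egr2 gave 1.89 ± 0.80 (adjusted p = 0.250). Of the 14 differences, 10 were positive, beside 43.0% of all genes, and 4 negative, the lowest −1.79 ± 2.35 for Chil3 (adjusted p = 0.712, limma).

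Transcription factors of myeloid cells gave 2 that rose of 12 tested, beside 0.603% of all genes, and 0 that fell. Their median difference was 1.96, or 1.84 with Spi1 and any other gene too dim in 1 genotype set at its bound. Spi1 met the filter through the knockout arrays alone, where it is high. Spi1, which encodes PU.1, an activator of several of these receptor genes, had −2.35, −2.65, −3.33 and −2.64 on the knockout arrays and was above background on 0 of 7 wild-type arrays. It was at least 2.98-fold higher in knockout arrays over all arrays and at least 2.55-fold higher in the fit with slide. On the signals as measured, the adjusted p was 0.0427 (limma), with means of −2.74 ± 0.41 (SD, n = 4) on the knockout arrays and −5.93 ± 0.74 (SD, n = 7) on the wild-type arrays. Batf3, a dendritic cell factor, rose by 2.81 ± 0.45 (adjusted p = 0.0275), with levels of 1.03 to 2.11 on the knockout arrays and −2.36 to 1.38 on the wild-type arrays, which overlapped.

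**Figure D4:**
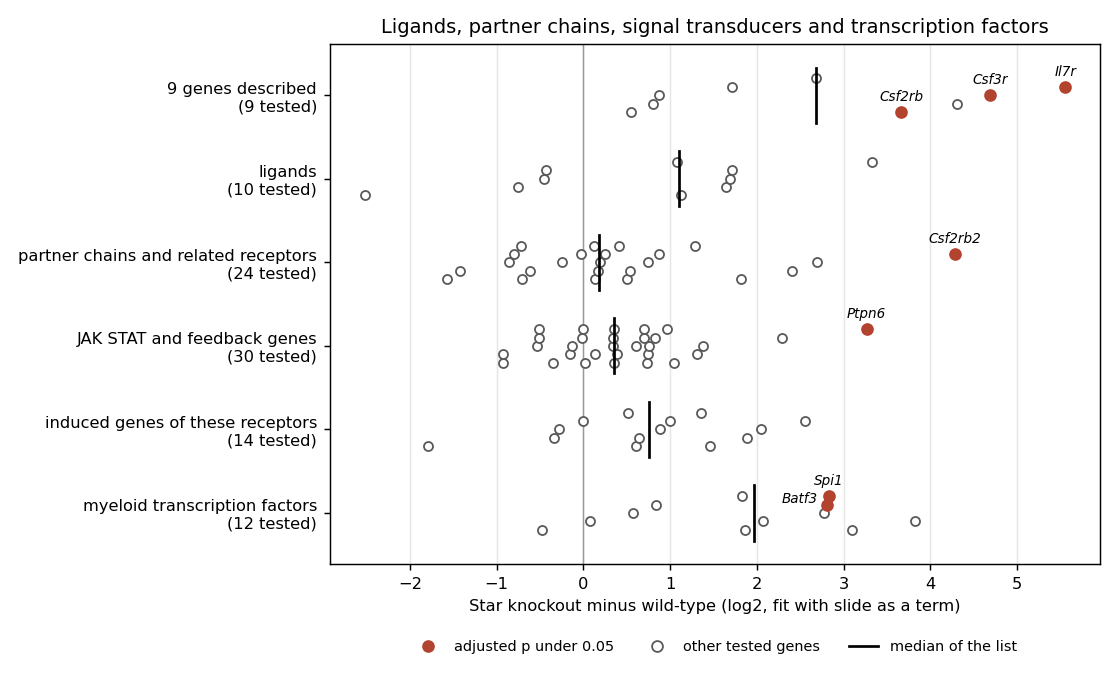
Star knockout minus wild-type, in log2 from the fit with slide as a term, for every tested gene among the 9 genes and in lists of ligands, partner chains, signal transducers, induced genes and myeloid transcription factors. Filled red points have an adjusted p under 0.05 and black bars are list medians, which run from 0.18 for partner chains to 2.69 for the 9 genes; Csf1 is also among the ligands.

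Macrophage markers had a higher mean level on every knockout array than on any wild-type array, and Csf1r and Il10ra were likewise higher there. Of 12 macrophage and monocyte markers tested, 11 had positive differences, beside 43.0% of all genes, with a median of 2.39 (1.76 within slide 1 and 3.95 within slide 2). With limma 0 passed, and 10 had an unadjusted p under 0.05, beside 18.5% of all genes. Their mean level was 3.25, 2.86, 3.81 and 2.82 on the knockout arrays, with Lyz2 left out as an outlier spot on knockout array 4, against −0.92 to 1.87 on the wild-type arrays. All 12 were above background on every knockout array, and 8 to 11 on a wild-type array. Tyrobp, a signalling adaptor of myeloid cells, gave 4.54 ± 0.93 (adjusted p = 0.0651), and the lipopolysaccharide co-receptor Cd14 gave 3.02 ± 0.72 (adjusted p = 0.0899). Wild-type arrays 1, 2 and 6 had the 3 highest marker means among wild-type arrays, and the same arrays had the 3 highest levels of Csf1r and of Il10ra. Csf1 and Il2rg had their 3 highest wild-type levels there too. Among the knockout arrays, array 3 had the highest marker mean and Il10ra level, and array 4 the highest Csf1r level. In such sorted bulk samples, more cells of a type and more RNA per cell cannot be told apart, and the part of these markers in the receptor differences was not tested.

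**Figure D5:**
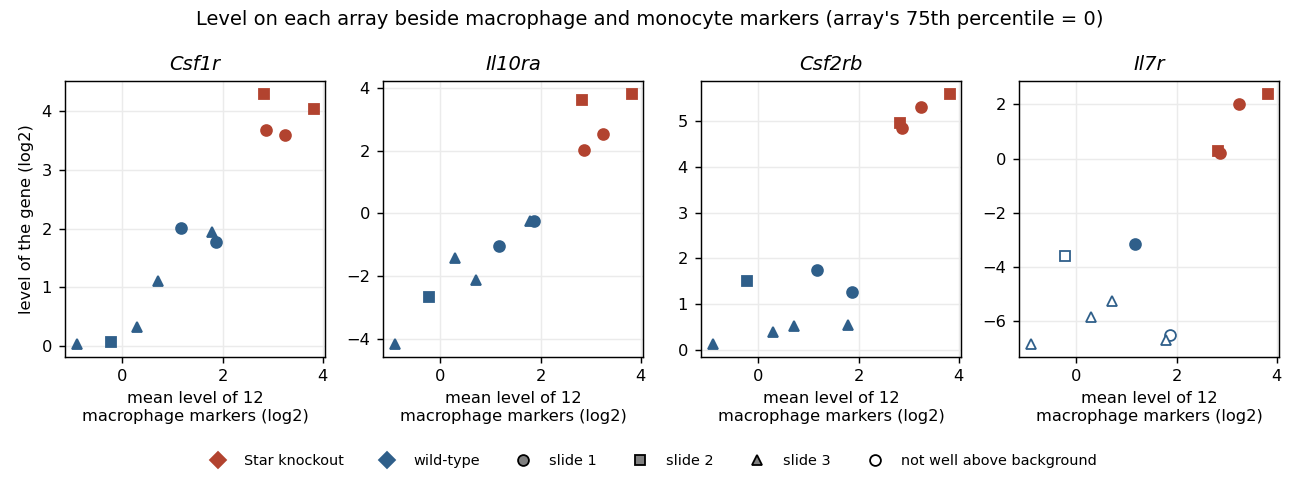
Level of Csf1r, Il10ra, Csf2rb and Il7r on each array (vertical, log2) against the mean level of 12 macrophage and monocyte markers on that array (horizontal, log2), for 4 Star knockout arrays (red) and 7 wild-type arrays (blue), with the array's 75th percentile at 0. Among the wild-type arrays, 1, 2 and 6 have the 3 highest marker means and the 3 highest levels of Csf1r and Il10ra; open markers are not well above background.

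For Csf2rb the 3 highest wild-type arrays were 1, 2 and 3, and for Csf3r and Il7r too few wild-type arrays were above background to give an order. Markers of resident tissue macrophages gave 1 that rose of 7 tested, beside 0.603% of all genes. It was Cd5l, which encodes a protein secreted by macrophages (6.12 ± 0.90, adjusted p = 0.0230, limma). The mean level of these 7 markers was 0.77 to 1.56 on the knockout arrays and −2.07 to 0.77 on the wild-type arrays. The phosphatidylserine receptor gene Timd4 gave 4.75 ± 1.08 (adjusted p = 0.0798) and Folr2 gave 3.17 ± 0.86 (adjusted p = 0.117). Of the 7, 5 differences were positive, beside 43.0% of all genes, and 2 negative. The negative ones were −1.95 ± 1.21 for Lyve1 (adjusted p = 0.410, limma) and −4.06 ± 1.44 for the haemoglobin scavenger receptor gene Cd163 (adjusted p = 0.192). Cd163 levels were −4.96 to −1.14 on the knockout arrays and −1.70 to 3.03 on the wild-type arrays.

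None of the tested lymphoid markers passed as higher, where 0.603% of all genes tested did, so lists this small would rarely hold a call. The cells that gave the Il7r signal were not tested. All 6 tested markers of innate lymphoid cells and lymphoid progenitors had negative differences, beside 57.0% of all genes, with a median of −1.17, 0 calls in either direction with limma and 1 unadjusted p under 0.05. Their mean level was −0.73 to −0.28 on the knockout arrays and 0.46 to 0.81 on the wild-type arrays. Tcf7, a transcription factor of T and innate lymphoid cells, gave −2.83 ± 0.75 (adjusted p = 0.114). Of 7 T and NK cell markers on the array 2 were bright enough to test, and 0 passed (unadjusted p under 0.05 in 0); Cd3g was not above background on any array. Their mean was −1.84 to −0.70 on the knockout arrays and −2.83 to −0.98 on the wild-type arrays. Of 5 tested B cell markers 0 passed (unadjusted p under 0.05 in 0), with a median difference of −0.17 and a mean level of −1.84 to −0.77 on the knockout arrays, against −4.27 to −1.22 on the wild-type arrays. Markers of mast cells and basophils, cells that can carry Csf2rb and Il4ra, gave 0 calls of 5 tested (0 at an unadjusted p under 0.05), with means of −2.55 to 1.18 on the knockout arrays and −2.38 to 1.52 on the wild-type arrays. Markers of chromaffin, endothelial, stromal and erythroid cells gave 0 calls with limma, and 1 of them, the erythroid Alas2, had an unadjusted p under 0.05 (−1.04 ± 0.39, adjusted p = 0.210).

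Genes with the most similar levels were ranked by Pearson r over arrays, as a description. Over the 7 wild-type arrays alone, which leave the genotype contrast out, the gene most like Csf1r was Ly86, a myeloid surface protein (r = 0.985). Those most like Il10ra were Clec4b1 (r = 0.995), the Fc receptor gene Fcgr4 (r = 0.995) and the lysosomal protease gene Ctsc (r = 0.994). Over all 11 arrays, where the gap between genotypes enters r, the genes like Il7r included Csf2rb (r = 0.973) and Igf1 (r = 0.958). Those like Csf3r included Car6 (r = 0.985) and Csf2rb (r = 0.981), and those like Csf2rb included Car6 (r = 0.987) and Slamf8 (r = 0.983). Csf1 was nearest to Tbc1d9 (r = 0.979) and to Cd274, which encodes the ligand PD-L1 (r = 0.972). Csf2ra, Il4ra and Il2rg had other neighbours, led by Pi4k2a (r = 0.961), Usp5 (r = 0.977) and Ngp, a neutrophil granule protein (r = 0.912).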

How the data were processed

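The deposited scanner files hold spot intensity from Agilent Feature Extraction (10.1.1.1 for slides 1 and 2 and 10.5.1.1 for slide 3, per the file headers; 10.5.1.1 per the submitters' processing notes), with background subtracted in the processed signal. The deposited series table holds log2 values made by the authors, with no scaling stated in the sources; once probe medians were removed, 99.8% of probes on every array lay within 0.01 of the scaled scanner values used here, with column medians from −0.166 to 0.901, and served as an alternative. Linear amplification preceded labelling, per the labels' protocols.

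Outlier spots (77 to 164 per array) were left out, control spots removed, spots of a probe averaged on the log2 scale and each array's 75th percentile over 41174 probes subtracted. Probes were named through their accessions and a RefSeq table of GRCm38.p6, which named 25377 probes; the headers name mm8 and mm9, so no gene coordinates were taken from them. A gene was read from its probe with the highest mean and tested if well above background on at least 4 of 11 arrays. Limma 3.58.1 in R 4.3.3 fitted genotype and slide (7 residual degrees of freedom), two-sided, and was tested on simulated data. Slide and scan were the same split. Each array is 1 mouse, and precision is limited by the 4 and 7 arrays.

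Members, gene lists and tests were chosen with earlier results of these data known. Named genes were all 9 members with every probe, Star, and the 3 most similar genes of each member. List genes were named if past the threshold, or else up to 4 of a pathway list and 3 of a marker list by p. S100a9, Elane, Il3, Il5, Il9, Il19, Il21, Csf2, Csf3, Cd3g, Lyve1, Cd163 and Ddx3y were named after their values were seen. So were Il20ra, Il21r, Chil3 and the full list of innate lymphoid and progenitor markers. Results for some genes that this rule selects are not reported here. Replicate numbers were not established as pairs. Alternatives covered slide, sex, the replicate block, background (normexp with offset 50 on median spot signals, as the files have no mean signal), scaling, filters, probes, variance, outliers, a 2-fold minimum, arrays left out and, added after seeing the data, dim signals raised to the lowest level above background. Other tools were statmod 1.5.0, version 1.17.8 of data.table, Python 3.11.15, pandas 2.3.3, numpy 2.4.6 and matplotlib 3.10.9.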

Additional observations from a re-analysis of the deposited data

Results flagged for a closer look

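One level of 28 groups of member levels stood apart from its group: the dim Il7r probe A_52_P555957 had −3.84 on wild-type array 3, with a gap to the next wild-type array of 0.569 of the group's range, against a critical value of 0.568. The signal was not well above background there, and chance flags about 1 in 20 groups.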

How the results depend on the processing

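Of 285 values of the 9 genes under alternative settings, 246 kept their direction and side of the threshold, 17 lost the threshold, 16 gained it and 6 turned in sign. Csf2rb passed in 29 of 32 settings, Csf3r in 28 of 31 and Il7r in 20 of 31, while Csf1r and Il10ra each passed in 7 of 32, Csf1 and Csf2ra in 1 each, and Il4ra and Il2rg in 0. The sign turned for Csf2ra within slide 2 alone (−0.31), for Il2rg under normexp (−0.14) and with dim signals raised (−0.040), and for Il4ra within slide 1 alone or without wild-type replicate 3 (−0.081 each) and under array weights (−0.063). With 1 array left out, Il4ra ran from −0.081 to 1.30. The cause was not tested.

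Against 3 members and 173 genes past the threshold, the members numbered 6 and all genes 594 with no slide term, 5 and 469 with slide as a random block, 5 and 624 under normexp, 6 and 1577 under array weights, and 5 and 322 with dim signals raised. Within slide 1 alone or slide 2 alone 0 members and 0 genes passed, where limma gave 3856 and 7489 genes an unadjusted p under 0.05; fewer arrays enter these fits. Sex as a further term left 2 members and 28 genes, or 78 genes without wild-type array 4. Median centring gave 92 genes, the filter on all 11 arrays 403 with 6 members tested, and a 2-fold minimum 22. Leaving out 1 array at a time gave 1 to 5 members and 10 to 565 genes; the 1 member without wild-type array 3 was Csf2rb, and the 5 without wild-type array 4 added Csf1r and Il10ra. Of the genes called, 72.3% were higher, against 55.8% with the filter on all 11 arrays, 55.5% under array weights, 62.1% without wild-type array 4 and 95.5% with the 2-fold minimum; the scalings gave 69.2% to 80.0%. The median over all genes, −0.16, was −0.29 under normexp and −0.02 with the percentile over probes bright on all arrays. With the replicate number as a replicate block in place of slide, 3 members and 177 genes passed; deviations of same-numbered arrays correlated at −0.0078 to 0.218, so the numbers were not taken as pairs. Signals near background limit Il2rg, Il7r and Csf3r in wild-type arrays, and wild-type array 3 alone sets every difference within slide 2.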
